A study of Mus musculus with 12 samples.

Results

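The genes followed here act late in red cell formation, when the erythroblast stops dividing, clears its organelles and expels its nucleus. The set holds 10 genes of the 38127 listed in the count tables: *Bnip3l*, *Trim58*, *Trim10*, *Xpo7*, *Ube2o*, *Foxo3*, *Rb1*, *E2f2*, *E2f4* and *Fbxo7*. They were taken by gene name, and each was found once. The question was how far this late program had run in P2 cells, Kit+ cells of the fetal liver (FL) that do not yet carry Ter119, the surface marker of later erythroid cells.

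Livers of unmanipulated C57BL/6 mouse embryos were dissociated, and Ter119-CD45- cells were sorted by surface markers for total RNA sequencing, in 4 groups of 3 libraries. P2 cells at embryonic day 14.5 (E14.5) were CD54-CD31-Kit+CD24+. The 2 other E14.5 groups were CD54+CD31- cells, which the study calls CD324+ (the epithelial fraction, with the hepatoblasts), and CD54+CD31+ cells, called CD31+ (endothelial cells). The last group was CD54+CD31- cells at E18.5. Each E14.5 group came from 3 independent litters. For the E18.5 group the labels speak only of biological replicates. No group was sorted for Ter119+ erythroblasts, so P2 cells could be set against other FL cells but not against the next erythroid stage.

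Terminal erythroid maturation is a run of shrinking divisions after which the cell leaves the cycle. Mitochondria are removed by autophagy with the help of a receptor on their surface, many proteins are marked with ubiquitin and degraded, the chromatin condenses, and the nucleus is expelled to leave a reticulocyte. BNIP3L (also called NIX) is that mitochondrial receptor. TRIM58 is a ubiquitin ligase that acts on the dynein motor before enucleation, TRIM10 is another TRIM protein needed for terminal differentiation, and XPO7 is a nuclear exporter used as the erythroid nucleus condenses. UBE2O is a ubiquitin-conjugating enzyme that clears ribosomal and other proteins from reticulocytes, and FBXO7 is the substrate-binding subunit of an SCF ubiquitin ligase. FOXO3 is a transcription factor for antioxidant and maturation genes. RB1 restrains E2F factors at cell cycle exit, with E2F2 as the E2F most tied to late erythroblasts and E2F4 as a family member abundant in erythroid precursors.

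Promoter windows are printed for the gene of the set with the largest rise from CD324+ to P2 cells (*Trim58*), the one that spread widely over the CD324+ libraries (*Trim10*) and the one not called between P2 and CD324+ cells (*E2f2*). The RefSeq table (GRCm38.p6) held windows for 5 of the 10 genes, 7 windows in all, each running from 250 bases before the start site to 50 bases from it. Capitals mark matches to the letters GATAA (the core bound by GATA factors), CACCC (the core bound by KLF1), TTTNGCGC (an E2F site) and TGTTTAC (a forkhead site), searched on both strands. The windows lie at chr11:58640215-58640514 on the plus strand for *Trim58*, at chr17:36869324-36869623 on the plus strand for *Trim10*, and at chr4:136172024-136172323 on the plus strand for the first of 2 windows of *E2f2*.
Trim58: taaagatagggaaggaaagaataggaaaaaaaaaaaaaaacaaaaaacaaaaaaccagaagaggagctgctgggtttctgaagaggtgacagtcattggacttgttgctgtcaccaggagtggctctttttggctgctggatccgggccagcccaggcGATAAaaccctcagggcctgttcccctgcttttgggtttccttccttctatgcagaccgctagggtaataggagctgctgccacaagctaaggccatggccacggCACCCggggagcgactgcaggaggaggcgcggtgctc
Trim10: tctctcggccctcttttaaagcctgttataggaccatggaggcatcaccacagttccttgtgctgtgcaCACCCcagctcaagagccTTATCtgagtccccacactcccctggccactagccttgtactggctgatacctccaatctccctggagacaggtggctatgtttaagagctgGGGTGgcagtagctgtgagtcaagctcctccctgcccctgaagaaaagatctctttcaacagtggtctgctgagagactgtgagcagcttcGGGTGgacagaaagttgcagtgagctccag
E2f2: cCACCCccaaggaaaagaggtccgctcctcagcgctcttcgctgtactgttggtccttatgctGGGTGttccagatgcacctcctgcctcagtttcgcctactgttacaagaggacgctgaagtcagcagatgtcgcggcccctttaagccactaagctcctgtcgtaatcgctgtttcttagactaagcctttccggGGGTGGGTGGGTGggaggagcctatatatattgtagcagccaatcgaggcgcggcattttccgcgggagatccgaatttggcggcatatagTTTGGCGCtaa

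The GATAA core occurred once in the *Trim58* window, 92 bases before the start site, and once in the *Trim10* window, 163 bases before it on the opposite strand. It was absent from the other 5 windows. Of 32851 windows in the table, 25.4% held this core, so a match is common. CACCC occurred once in the *Trim58* window, 3 times in that of *Trim10* and 5 times in that of *E2f2*, where 3 copies overlap by a base from 52, 48 and 44 bases before the start site, and 57.5% of all windows held at least 1 copy. The E2F letters were found only in the *E2f2* window printed, 39 bases after the start site, against 1.38% of all windows. TGTTTAC, present in 3.65% of all windows, was in none of the 7. The other windows read were 1 of *Foxo3*, the second of *E2f2* and 2 of *Fbxo7*. These matches describe the letters of the windows and were not tested for binding. *Bnip3l*, *Xpo7*, *Ube2o*, *Rb1* and *E2f4* had no window.

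The libraries held 40714017 to 64368883 counts, and levels are counts per 1000000 (CPM) after TMM scaling over all 12. The sorting genes followed the gates: *Kit* averaged 323 CPM in P2 and 11 to 60.1 in the other groups, and *Icam1* (CD54) 2.56 CPM in P2 and 51.8 to 224 in the others. The summed level of 19 hepatoblast markers was 885 to 903 CPM in P2 and 91491 to 104804 in CD324+ libraries. For 18 endothelial markers it was 14222 to 15006 CPM in CD31+ libraries, with 111, 631 and 181 in P2 replicates 1, 2 and 3, so P2 replicate 2 held the most. CD31+ libraries also held more macrophage and megakaryocyte transcripts than P2 (summed markers of 1695 to 2116 against 25.4 to 91.7 CPM, and of 568 to 914 against 70.7 to 153). CD324+ libraries held more macrophage and mesenchymal transcripts than P2 (588 to 782 CPM, and 134 to 260 against 48.8 to 76.7). There 16 of 17 macrophage and 11 of 13 mesenchymal markers tested were called lower in P2 (36.1% of all genes). The part of these transcripts in the differences from P2 was not tested. The E18.5 libraries stood apart from their label as liver: 15 lung epithelial markers summed to 12215 to 25880 CPM there and to 190 to 204 in the E14.5 CD324+ libraries, and *Sftpc*, the lung surfactant protein C gene, averaged 7624 CPM against 0.610. Hepatoblast markers in these libraries summed to 7408, 54436 and 71107 CPM, lowest in replicate 1, where the lung markers were highest. In addition, 14123 genes were listed at 0 in all 12 libraries, among them genes that every cell uses such as *Map1lc3b* and the erythroid heme gene *Alas2*, so those are described only as listed at 0.

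All 10 genes were measured in every library, with at least 25 counts. Per kilobase of annotated exon, which allows genes to be compared, the level in P2 cells ran from 151 CPM per kb for *E2f4* through 21.4 for *Foxo3*, 21.0 for *Bnip3l*, 20.2 for *Trim10*, 10.9 for *Ube2o*, 10.4 for *E2f2*, 7.41 for *Fbxo7*, 7.25 for *Rb1* and 6.83 for *Trim58* to 1.58 for *Xpo7*. *E2f4* thus led the set, and *Xpo7* came last. The *Xpo7* value was divided by 19005 bases of annotated exon, the longest of the 10.

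Most of the genes exceeded their CD324+ level in P2 cells, and *Xpo7* was lower. With edgeR's quasi-likelihood test over 15461 genes and Benjamini-Hochberg adjustment at 0.05, 8 of the 10 rose, 1 fell and 1 was not called. Across all genes tested 33.8% were called higher and 36.1% lower. More than 2-fold, 5 of the 10 were higher, beside 16% of all genes, and 1 was lower, beside 27.8%. The median log2 fold change of the set was 0.93 against -0.01 over all genes. Against CD31+ cells, 6 rose (34.3% of all genes), 2 fell (39.4%) and 2 were not called. There 3 were more than 2-fold higher (17.1%) and 1 was more than 2-fold lower (30.4%), with a median of 0.70 against -0.13. With the authors' own scaling the median of all genes moved to -0.27 and -0.50 in the 2 comparisons, and the share of higher genes among those called fell from 48.3% to 38.2% and from 46.6% to 33.9%. The set's medians were then 0.67 and 0.33. Without P2 replicate 2, which held the most endothelial transcripts of the P2 libraries, 8 genes were higher and 1 lower than in CD324+ cells. Against CD31+ cells 6 were higher and 2 lower. The 2 comparisons share the P2 libraries. A bulk level does not tell whether fewer cells carried a transcript or each cell carried less.

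**Figure D1:**
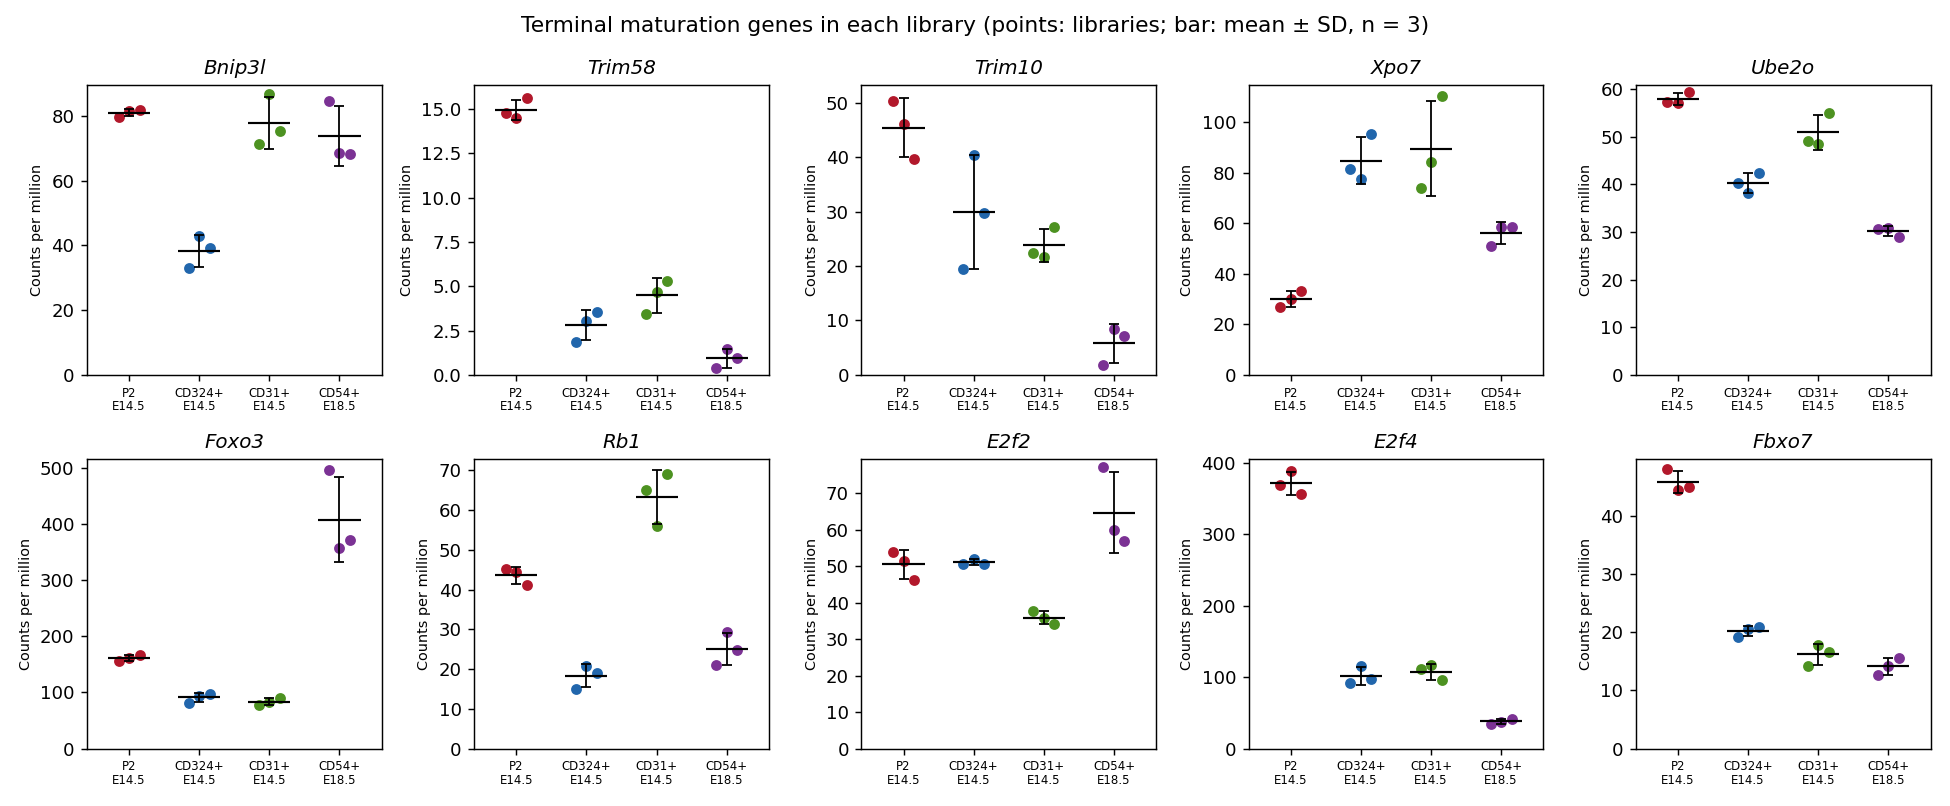
Level of each of the 10 genes in CPM (vertical axes, from 0) in the 3 libraries of each sorted group (horizontal axis; CD54+ E18.5 stands for CD54+CD31- cells), with the mean and SD as black bars. *Trim58*, *E2f4* and *Fbxo7* are highest in all 3 P2 libraries, *Xpo7* is lowest there, and *Foxo3* is highest at E18.5.

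*Bnip3l*, the mitophagy receptor gene (GRCm38 chr14:66985239-67008877, minus strand), stood at 79.8, 81.5 and 81.8 CPM in P2, at 33.1, 42.9 and 39.3 in CD324+, at 71.5, 86.9 and 75.5 in CD31+ and at 84.5, 68.6 and 68.4 in the E18.5 libraries. CD324+ cells were low and the other 3 groups overlapped. The gene was 2.08-fold higher in P2 than in CD324+ cells (log2 fold change 1.06, SE 0.11, adjusted p = 8.75e-06, edgeR). Against CD31+ cells the difference was 0.05 (SE 0.11, edgeR adjusted p = 0.719), and with the authors' scaling in place of TMM it became -0.32 (adjusted p = 0.01). *Bnip3l* was also 2.02-fold higher in CD31+ than in CD324+ cells.

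*Bnip3*, the related mitophagy receptor, had another pattern: 7.58 ± 0.694 CPM in P2, 36.3 ± 6.27 in CD324+ and 6.68 ± 1.05 in CD31+ (SD, n = 3). It fell by 2.28 on the log2 scale from CD324+ to P2 (edgeR adjusted p = 5.60e-07). The ratio of *Bnip3l* to *Bnip3* counts within a library, which no scaling touches, was 11.4, 11.1 and 9.79 in P2 and 1.07, 0.991 and 1.13 in CD324+, so these groups lay far apart. In CD31+ libraries it was 13, 12.3 and 10.1, overlapping P2.

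Of 33 autophagy and mitophagy genes, 32 were tested between P2 and CD324+ cells. Of these, 11 rose (33.8% of all genes), 15 fell (36.1%) and 6 were not called. The median log2 fold change was -0.15. The largest falls were those of *Map1lc3a*, a microtubule-associated LC3 gene (-2.62), *Bnip3*, the lysosomal membrane gene *Lamp2* (-2.24), *Tfeb*, a transcription factor for lysosome genes (-2.19), and *Pink1*, the kinase that flags damaged mitochondria (-1.88). Among those that rose, *Gabarapl1* (1.28) and the phosphoinositide-binding *Wipi1* (1.17) were more than 2-fold higher. These were named after their values were seen. Against CD31+ cells 7 rose (34.3% of all genes), 12 fell (39.4%) and 13 were not called.

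*Trim58*, the dynein-directed ubiquitin ligase gene (chr11:58640465-58652404, plus strand), was highest in P2, at 14.8, 14.5 and 15.6 CPM. CD324+ libraries had 1.87, 3.02 and 3.55, CD31+ libraries 3.41, 4.70 and 5.32, and E18.5 libraries 0.387, 1.46 and 0.928. P2 did not overlap with any other group, and CD31+ overlapped with CD324+. The gene was 5.24-fold higher in P2 than in CD324+ cells (log2 2.39, SE 0.24, edgeR adjusted p = 7.62e-06), which placed it 386th of 15461 genes by fold change and first in the set. The study's list of genes raised in P2 over CD324+ cells, drawn from these libraries, holds *Trim58*, so its direction is not independent evidence. Against CD31+ cells it was 3.31-fold higher (log2 1.73, SE 0.23, edgeR adjusted p = 5.92e-05).

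The genes of the dynein motor, the complex that TRIM58 acts on, were spread around 0. Between P2 and CD324+ cells, 5 of 16 dynein and dynactin genes tested rose (33.8% of all genes), 3 fell (36.1%) and 8 were not called. Their median was 0.07. *Dync1h1*, the heavy chain, was 0.52 higher on the log2 scale (edgeR adjusted p = 0.000141). The largest differences were -1.66 for *Dync1i1* and -1.03 for *Ndel1*, a dynein regulator. Against CD31+ cells 2 rose (34.3% of all genes) and 9 fell (39.4%).

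*Trim10* (chr17:36869574-36877833, plus strand) had 50.4, 46.2 and 39.7 CPM in P2 and 22.5, 21.7 and 27.2 in CD31+ libraries. In CD324+ libraries it ranged widely, at 19.4, 40.4 and 29.8, and the highest of these overlapped P2. At E18.5 it stood at 1.76, 8.41 and 7.16. The 1.89-fold excess of P2 over CD31+ cells was called (log2 0.92, SE 0.22, edgeR adjusted p = 0.00327), and that call was lost with all 12 libraries in the fit (adjusted p = 0.0733). The 1.5-fold excess over CD324+ cells was called only narrowly (0.59, SE 0.22, adjusted p = 0.0349), and the call was lost with the authors' scaling (adjusted p = 0.189), with all 12 libraries in the fit (0.234), with a minimum of 10 counts in every library (0.0619) and without P2 replicate 1 (0.102), CD324+ replicate 1 (0.0739) or CD324+ replicate 3 (0.0823).

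In the CD324+ libraries the order of *Trim10* was that of 38 late erythroid genes summed, 2195, 3307 and 2663 CPM in replicates 1, 2 and 3, against 6797 to 7437 in P2. The part of this late erythroid RNA in the *Trim10* level was not tested. Per 1000 counts of the late erythroid genes, *Trim10* had 6.78, 6.79 and 5.66 counts in P2 and more, 8.85, 12.2 and 11.2, in CD324+. *Trim58* went the other way, with 1.99, 2.13 and 2.22 in P2 and 0.851, 0.914 and 1.33 in CD324+. Per 1000 counts of 24 early erythroid genes, *Trim10* again had fewer counts in P2 (10.1, 9.37 and 8.02) than in CD324+ (19.8, 30.8 and 25.7). *Trim58* overlapped there, with 2.96, 2.94 and 3.15 in P2 and 1.90, 2.30 and 3.06 in CD324+. The 2 TRIM genes thus went opposite ways without overlap only when set against the late genes.

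*Xpo7*, the nuclear exporter gene (chr14:70654246-70766628, minus strand), was lowest in P2. It had 26.8, 30.2 and 33.0 CPM there, 81.5, 77.5 and 95.3 in CD324+, 74.0, 84.2 and 111 in CD31+ and 51.1, 58.5 and 58.6 at E18.5. No P2 library overlapped with any other, and CD31+ and CD324+ overlapped each other. *Xpo7* was 2.86-fold lower in P2 than in CD324+ cells (log2 -1.52, SE 0.16, edgeR adjusted p = 8.26e-06) and 3.01-fold lower than in CD31+ cells (-1.59, SE 0.16, adjusted p = 5.67e-06). In both comparisons it was the member that was more than 2-fold lower.

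Other nuclear transport genes moved the other way. Of 26 tested, 22 rose (33.8% of all genes), 4 were not called and none fell (36.1%) between P2 and CD324+ cells, with a median of 0.82. Against CD31+ cells 23 rose (34.3% of all genes) and 1 fell (39.4%). The largest rises over CD324+ cells were in *Rcc1*, the exchange factor of RAN (1.34), *Xpo4* (1.31), *Ipo5* (1.25), *Xpo5* (1.12) and *Ranbp1* (1.06). *Xpo1*, the main exporter of proteins from the nucleus, averaged 609 ± 39.8 CPM in P2 and 304 ± 25.3 in CD324+ (SD, n = 3; log2 0.99). The ratio of *Xpo7* to *Xpo1* counts was 0.0451, 0.0521 and 0.0504 in P2 and 0.292, 0.257 and 0.289 in CD324+. It was 0.267, 0.258 and 0.368 in CD31+ and 0.360, 0.339 and 0.341 at E18.5, so that all 9 other libraries lay above P2. *Npm2*, which shares 39 exon bases with *Xpo7* on the same strand, had 182 counts in all libraries together beside 41424 for *Xpo7*.

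**Figure D2:**
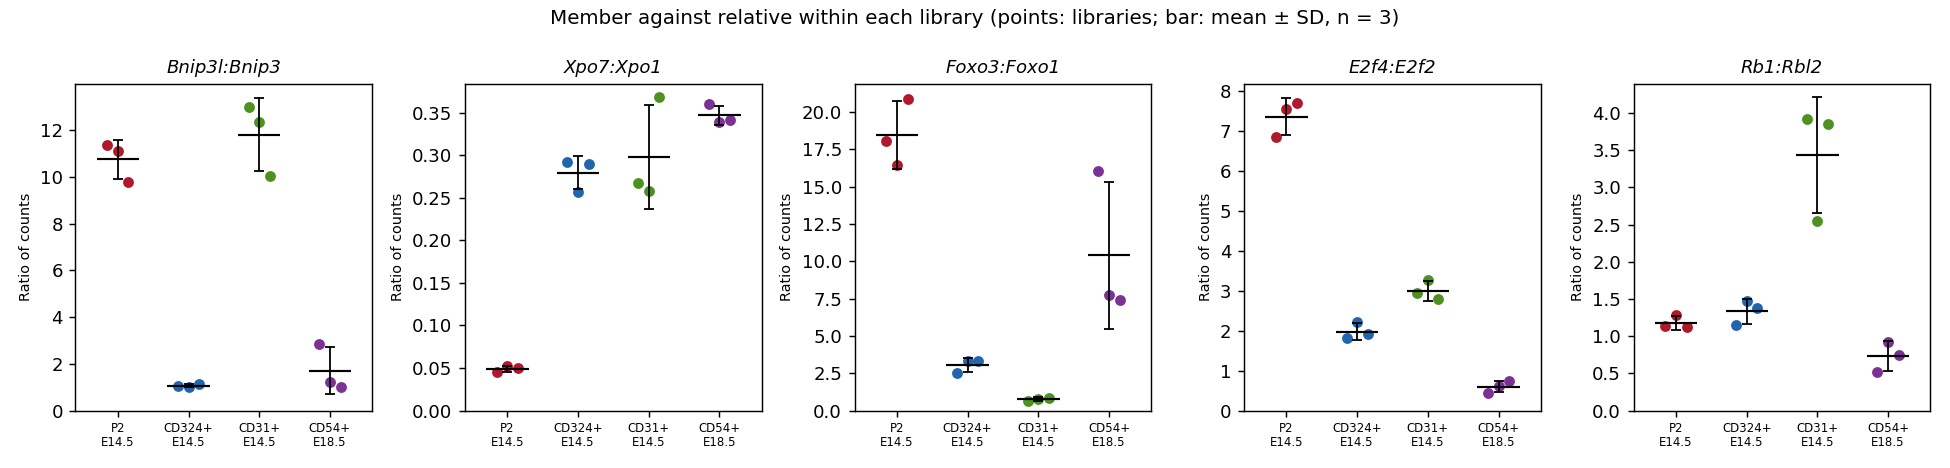
Ratio of the raw counts of a gene of the set to those of a relative (vertical axes, from 0) in each library of the 4 groups, with the mean and SD as black bars. *Xpo7*:*Xpo1* is lowest in the 3 P2 libraries and *E2f4*:*E2f2* highest, while *Bnip3l*:*Bnip3* in P2 overlaps CD31+ and lies above CD324+.

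*Fbxo7*, the SCF subunit gene (chr10:86021972-86051873, plus strand), had 48.0, 44.5 and 44.8 CPM in P2, 19.2, 20.5 and 20.8 in CD324+, 14.2, 17.7 and 16.7 in CD31+ and 12.6, 14.2 and 15.6 at E18.5. P2 was high without overlap. The excess was 2.24-fold over CD324+ cells (log2 1.16, SE 0.10, edgeR adjusted p = 2.26e-06) and 2.80-fold over CD31+ cells (1.49, SE 0.10, adjusted p = 4.40e-07). An antisense gene, *A230060F14Rik*, shares 314 exon bases with it and had 94 counts in all libraries together. Whether counting used strand is not given in the sources used here, so reads of overlapping antisense genes cannot be told apart.

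*Ube2o* (chr11:116537740-116581447, minus strand) spanned a narrower range than *Fbxo7*. It had 57.3, 57.0 and 59.3 CPM in P2, 49.1, 48.5 and 55.0 in CD31+, 40.3, 38.3 and 42.4 in CD324+ and 30.7, 30.9 and 28.9 at E18.5. The 4 groups followed that order with no overlap between neighbours. It was 1.42-fold higher in P2 than in CD324+ cells (log2 0.50, SE 0.08, edgeR adjusted p = 0.000324) and was not called against CD31+ cells (0.17, SE 0.08, adjusted p = 0.0816), where the authors' scaling gave -0.20. It was called higher there without P2 replicate 1 (0.26, adjusted p = 0.0450) and without CD31+ replicate 3 (0.29, adjusted p = 0.0124).

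A further list held 18 ubiquitin genes chosen as partners of these enzymes or as other ligases of late erythroid cells. Between P2 and CD324+ cells 10 rose (33.8% of all genes), 3 fell (36.1%) and 5 were not called. *Psmf1*, a proteasome regulator that binds FBXO7, was among the higher genes, at 47.4 ± 2.5 CPM against 25.5 ± 1.26 (SD, n = 3; log2 0.88). *Mkrn1*, a ubiquitin ligase gene, was 1.31 higher and *Gid4*, a substrate receptor of the CTLH ligase, 1.00 higher. *Ube2h*, the conjugating enzyme that works with the CTLH ligase in erythroid cells, was lower: 19.5 ± 1.61 CPM in P2, 40.2 ± 2.41 in CD324+ and 74.0 ± 8.46 in CD31+, a log2 difference of -1.06 and -1.93. *Ube2l6*, the conjugating enzyme for the ubiquitin-like ISG15, was 2.26 lower than in CD324+ cells on the log2 scale. Of the other CTLH subunit genes, all named after their values were seen, *Ranbp10* (0.53), *Armc8* (0.39), *Gid8* (0.38), *Mkln1* (0.20) and *Ranbp9* (0.19) were higher. *Maea* (-0.12, adjusted p = 0.232), *Rmnd5a* (-0.01, adjusted p = 0.945) and *Wdr26* (0.00, adjusted p = 0.988) were not called by edgeR. Against CD31+ cells 9 of the 18 rose (34.3% of all genes) and 2 fell (39.4%).

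*Foxo3* (chr10:42181841-42276755, minus strand) had 157, 162 and 167 CPM in P2, 82.1, 94.5 and 97.9 in CD324+ and 77.4, 83.1 and 89.6 in CD31+. P2 lay above both E14.5 groups, which overlapped each other. The excess was 1.74-fold over CD324+ cells (log2 0.80, SE 0.09, edgeR adjusted p = 1.87e-05) and 1.92-fold over CD31+ cells (0.94, SE 0.09, adjusted p = 5.38e-06). The E18.5 libraries were higher still, at 496, 358 and 371 CPM.

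*Foxo1*, its relative, ran the other way in P2, at 8.84 ± 0.937 CPM against 30.3 ± 2.40 in CD324+ and 109 ± 9.20 in CD31+ (SD, n = 3). The ratio of *Foxo3* to *Foxo1* counts was 18.0, 16.4 and 20.9 in P2, 2.5, 3.35 and 3.30 in CD324+ and 0.647, 0.783 and 0.879 in CD31+. Between P2 and CD324+ cells, 14 other FoxO genes and known FoxO target genes were tested. Of these, 4 rose (33.8% of all genes), 9 fell (36.1%) and 1 was not called, with a median of -1.36. *Sesn3*, a stress-response gene (-4.70), *Bcl6*, a transcriptional repressor (-4.58), *Ccng2*, an atypical cyclin (-2.04), and *Cited2*, a transcriptional co-regulator (-1.96), fell. *Klf9*, a zinc finger factor, was the exception among the largest changes, with 24.5 ± 1.87 CPM in P2 and 3.23 ± 0.176 in CD324+ (log2 2.90, edgeR adjusted p = 3.38e-07). Against CD31+ cells 6 rose (34.3% of all genes) and 8 fell (39.4%). *Txnip*, another target, was listed at 0 in every library.

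*Rb1* (chr14:73183673-73325822, minus strand) had 45.1, 44.5 and 41.2 CPM in P2, 15.1, 20.9 and 19.1 in CD324+, 65.2, 55.9 and 69.1 in CD31+ and 21.2, 29.2 and 24.8 at E18.5. CD31+ was highest, P2 came next and no neighbours in this order overlapped. P2 was 2.35-fold above CD324+ cells (log2 1.23, SE 0.13, edgeR adjusted p = 9.87e-06) and 1.47-fold below CD31+ cells (-0.55, SE 0.13, adjusted p = 0.00235). *Rcbtb2* lies on the opposite strand and shares 488 bases, or 8.11% of the *Rb1* exons. It averaged 9.03 CPM in P2, 31.3 in CD324+ and 58.5 in CD31+, so it was lowest in P2 and highest in CD31+ cells, and its part in the *Rb1* counts was not tested. *Lpar6*, also on the opposite strand, shares 408 bases, or 6.78% of the *Rb1* exons, and was listed at 0 in every library.

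*E2f4* (chr8:105297663-105305370, plus strand) stood out in P2 cells. It had 369, 388 and 357 CPM in P2, 91.7, 115 and 97.3 in CD324+, 111, 117 and 95.5 in CD31+ and 34.7, 37.7 and 41.7 at E18.5. P2 was high without overlap, CD324+ and CD31+ overlapped, and E18.5 was lowest. The excess in P2 was 3.62-fold over CD324+ cells (log2 1.85, SE 0.11, edgeR adjusted p = 1.46e-07) and 3.42-fold over CD31+ cells (1.77, SE 0.11, adjusted p = 2.71e-07).

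*E2f2* (chr4:136172394-136196057, plus strand) was the member not called between P2 and CD324+ cells. It had 53.9, 51.4 and 46.3 CPM in P2, 50.7, 52.1 and 50.7 in CD324+, 37.7, 35.9 and 34.2 in CD31+ and 77.4, 59.9 and 56.9 at E18.5. P2 and CD324+ overlapped, CD31+ was lowest and E18.5 highest. The log2 difference from CD324+ cells was -0.04 (SE 0.08, edgeR adjusted p = 0.714), and with the authors' scaling *E2f2* was called lower in P2 (adjusted p = 0.0146). Over CD31+ cells it was 1.4-fold higher (0.48, SE 0.08, adjusted p = 0.000436), a call lost with the authors' scaling (0.11, adjusted p = 0.299). The *E2f4* to *E2f2* count ratio was 6.85, 7.55 and 7.70 in P2, 1.81, 2.21 and 1.92 in CD324+, 2.94, 3.27 and 2.79 in CD31+ and 0.448, 0.629 and 0.733 at E18.5, with no overlap among the 4 groups.

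The rest of the E2F and pocket protein family was mostly higher in P2. Of 14 genes, 12 rose (33.8% of all genes), 1 fell (36.1%) and 1 was not called against CD324+ cells, with a median of 0.50. *Rbl2*, the pocket protein p130 (1.41), the E2F partners *Tfdp1* (1.39) and *Tfdp2*, *E2f1* (1.03) and *E2f6* (0.96) rose most. *E2f5*, the relative closest to *E2f4*, was the gene that fell (-0.56). Against CD31+ cells 10 rose (34.3% of all genes), 1 fell (39.4%) and 3 were not called. The ratio of *Rb1* to *Rbl2* counts was 1.13, 1.29 and 1.12 in P2 and 1.15, 1.48 and 1.38 in CD324+, which overlapped, against 3.91, 2.54 and 3.85 in CD31+.

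**Figure D3:**
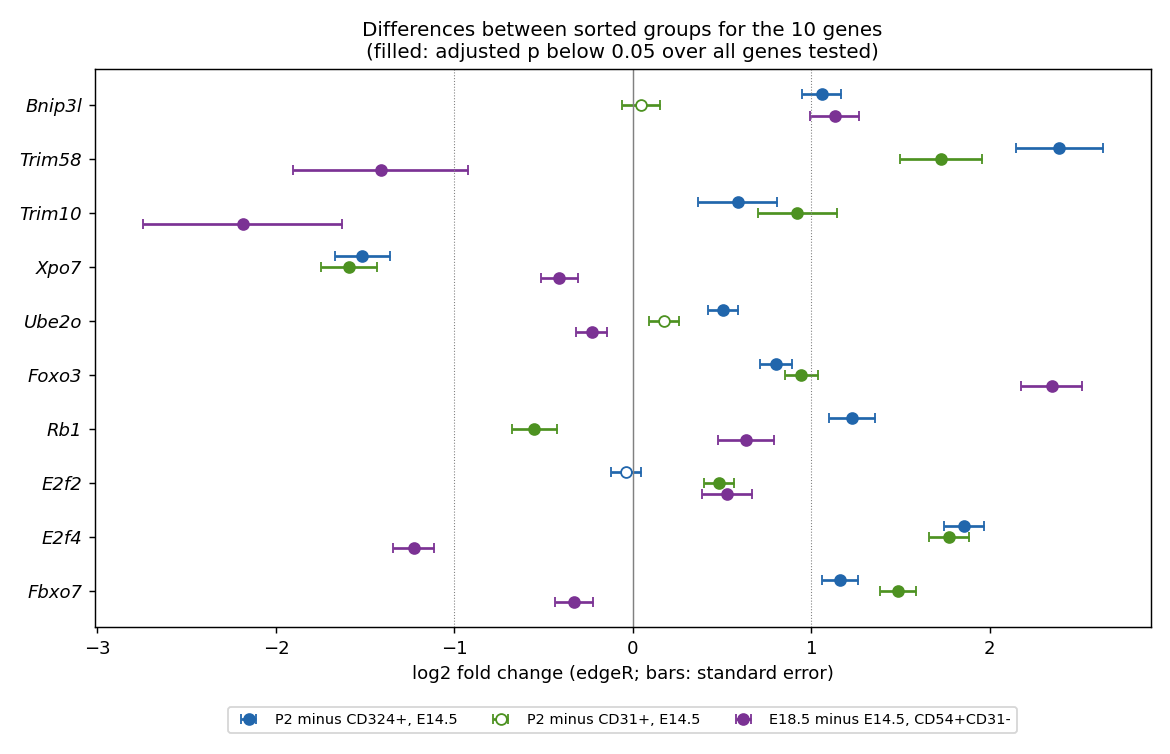
log2 fold change (horizontal axis) of the 10 genes between P2 and CD324+ cells (blue), between P2 and CD31+ cells (green) and between E18.5 and E14.5 CD54+CD31- cells (purple), with the standard error as bars. Filled points passed an adjusted p of 0.05 (edgeR), dotted lines mark 2-fold, and *Xpo7* is the point at -1.52 and -1.59 for P2.

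Early and late erythroid genes were read beside the set, against cells outside the P2 gate and not against another erythroid stage. Of 22 early erythroid genes tested, 21 rose (33.8% of all genes) and 1, *Nfia*, fell (36.1%) between P2 and CD324+ cells, with a median of 2.68. They were led by *Kit*, the stem cell factor receptor and a sorting gene (4.83), *Myb*, a progenitor transcription factor (4.49), *Runx3* (4.18), *Bcl11a*, a globin gene repressor (3.19), and *Ikzf1* (3.08). *Gata1* and *Klf1*, the central erythroid transcription factors, averaged 176 ± 7.35 and 397 ± 43.6 CPM in P2 and 25.5 ± 8.72 and 56.2 ± 18.7 in CD324+ (SD, n = 3). The study picked *Kit*, *Myb*, *Runx3*, *Bcl11a*, *Ikzf1*, *Klf1*, *Gata1* and *Epor* from these libraries as high in P2. Its list of raised genes also holds *Myc*, *Gfi1b*, *Tal1*, *Lmo2*, *Il1rl1* and *Car1*. The direction of these genes is therefore not independent evidence. They make up most of the early erythroid genes tested, so the count and median of that list have the same limit.

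Of 35 late erythroid genes tested, 24 rose (33.8% of all genes), 3 fell (36.1%) and 8 were not called, with a median of 1.05. The water channel *Aqp1* (3.04), the blood group gene *Ermap* (2.96), *Tspo2* (2.83), the Rh-associated *Rhag* (2.57) and the membrane skeleton gene *Ank1* (2.31) rose most. All of these but *Aqp1* are in the study's list drawn from these libraries, with the same limit. The 3 that fell, named after their values were seen, were *Ypel4* (-1.27), the survival gene *Bcl2l1* (-0.97) and *Slc4a1*, the band 3 anion exchanger of the red cell membrane (-0.91, edgeR adjusted p = 0.00767). *Slc4a1* had 136, 143 and 82.2 CPM in P2 and 170, 291 and 211 in CD324+ libraries. P2 lay below CD324+ without overlap. The adult globin gene *Hbb-bs* had 48.1, 43.9 and 32.8 CPM in P2 and 47.7, 122 and 74.8 in CD324+, which overlapped, and was not called (edgeR adjusted p = 0.138). Alpha and beta globin genes each come as pairs of nearly the same sequence, so the split of reads within a pair is uncertain. Against CD31+ cells 20 rose (34.3% of all genes), 5 fell (39.4%) and 10 were not called.

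**Figure D4:**
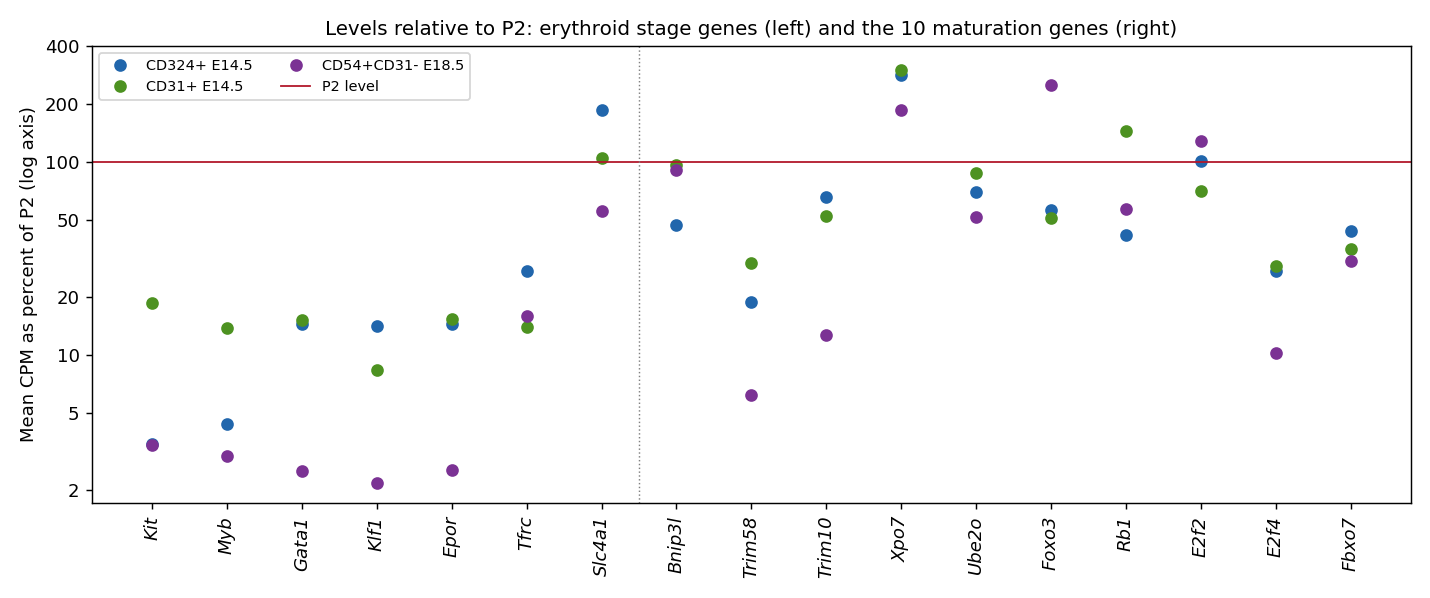
Mean level in each other group as a percent of the P2 mean (vertical axis, log scale; red line, 100%), for 7 genes of erythroid stages on the left and the 10 maturation genes on the right. *Kit* and *Myb* in CD324+ cells sit at 3.48% and 4.39% of P2 and *Slc4a1* at 186%. The maturation genes run from 18.8% for *Trim58* to 282% for *Xpo7*. *Slc4a1* is among the 3 late erythroid genes lower in P2, while 24 of 35 were higher.

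As a percent of the P2 mean, the maturation genes in CD324+ cells spanned most of the range from the erythroid transcription factors to *Slc4a1*, the anion exchanger of the red cell membrane, and *Xpo7* lay above it. There *Gata1*, *Klf1* and *Epor* stood at 14.5%, 14.2% and 14.4% of the P2 mean and *Trim58* at 18.8%. *E2f4* stood at 27.3%, close to the transferrin receptor gene *Tfrc* at 27.3%. *Rb1* was at 42.1%, *Fbxo7* at 44.1%, *Bnip3l* at 47.4%, *Foxo3* at 56.6%, *Trim10* at 65.8%, *Ube2o* at 69.7% and *E2f2* at 101%. *Slc4a1* stood at 186% and *Xpo7* at 282%. *Slc4a1* was among the 3 late erythroid genes that fell, beside 24 of 35 that rose, so it does not stand for that list. In the CD324+ libraries *Slc4a1* ran in the order of the summed late erythroid genes, a sum that includes it. The part of that RNA in its level was not tested.

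Genes used in enucleation were mixed. Of 17 tested between P2 and CD324+ cells, 10 rose (33.8% of all genes), 5 fell (36.1%) and 2 were not called. The median was 0.59. Against CD31+ cells 8 rose (34.3%) and 7 fell (39.4%), with a median of 0.01. Among those that rose were the GTPase *Rac2* (1.76), the myosin heavy chain *Myh10* (1.51), the formin *Diaph3* (1.26) and *Kmt5a*, the histone H4 methyltransferase needed for chromatin condensation (1.24). *Kmt5a* was also higher than in CD31+ cells, by 1.59 on the log2 scale. The 5 that fell, named after their values were seen, were the cytoskeletal genes *Myh9* (-0.92), *Tpm3* (-0.56), *Diaph1* (-0.54), *Cdc42* (-0.30) and *Rac1* (-0.26).

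**Figure D5:**
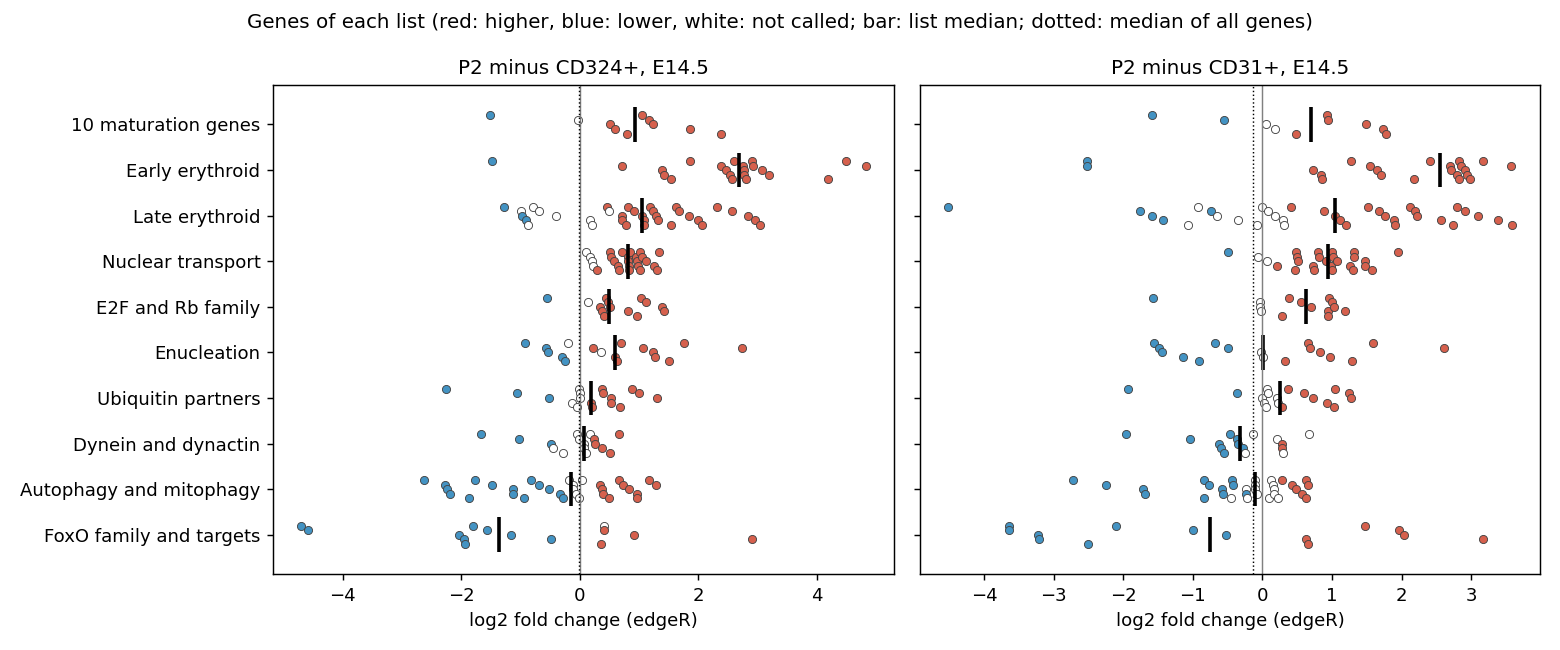
log2 fold change (horizontal axes) of every tested gene of each list between P2 and CD324+ cells (left) and between P2 and CD31+ cells (right), one point per gene, red where called higher, blue where called lower and white where not called (edgeR adjusted p of 0.05). Black bars are list medians, 0.93 and 0.70 for the 10 maturation genes, and the dotted lines are the medians over all genes, -0.01 and -0.13.

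The CD31+ and CD324+ cells, the 2 groups outside the P2 gate, also differed in these genes. In CD31+ cells 4 were higher (31.7% of all genes), 2 were lower (34%) and 4 were not called, with a median of 0.08 against -0.03. *Rb1* had the largest difference, 3.44-fold higher (log2 1.78, SE 0.13, edgeR adjusted p = 7.94e-07), followed by *Bnip3l* (1.01), *Trim58* (0.66, adjusted p = 0.0307) and *Ube2o* (0.33). *E2f2* (-0.52) and *Fbxo7* (-0.33) were lower. The call of *Trim58* was lost with all 12 libraries in the fit (adjusted p = 0.145), with the 6 libraries compared alone (0.0523) and without CD324+ replicate 1 (0.108), CD324+ replicate 2 (0.0769), CD31+ replicate 2 (0.111) or CD31+ replicate 3 (0.156). That of *Ube2o* was lost without CD324+ replicate 2 (0.0923) or CD31+ replicate 3 (0.0758), so that 2 genes were higher when one or the other of these libraries was left out. That of *Fbxo7* was lost with the authors' scaling (0.0506). *Trim10* was called lower in CD31+ cells without CD324+ replicate 1 (-0.58, adjusted p = 0.0122) and *Foxo3* without CD31+ replicate 3 (-0.27, adjusted p = 0.0313).

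The E18.5 and E14.5 CD54+CD31- libraries were compared in a fit of their own over 15863 genes. The lung epithelial, mesenchymal and other marker differences given with the libraries moved with every result of this comparison, and their part in it was not tested. Mesenchymal markers summed to 4120 to 4538 CPM at E18.5 and to 134 to 260 at E14.5, late erythroid genes to 1183 to 1686 and 2195 to 3307, and early erythroid genes to 714 to 879 and 982 to 1313. Of the 10 genes, 4 were higher at E18.5 (35.9% of all genes), 2 of them more than 2-fold (26.9%), and 6 were lower (33.5%), 3 of them more than 2-fold (18.9%).

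*Foxo3* was 5.09-fold higher at E18.5 (log2 2.35, SE 0.17, edgeR adjusted p = 5.33e-05), *Bnip3l* 2.19-fold (1.13, adjusted p = 0.000401), *Rb1* 1.55-fold (0.63, adjusted p = 0.00980) and *E2f2* 1.44-fold (0.53, adjusted p = 0.0134). Among the CD54+CD31- libraries, the highest in *Foxo3*, *Bnip3l* and *E2f2* was E18.5 replicate 1, that with the most lung and the fewest hepatoblast transcripts. *Rb1* went the other way: that replicate was its lowest at E18.5, at 21.2 CPM against 29.2 and 24.8. Of 15 other FoxO genes and FoxO target genes, 11 were higher (35.9% of all genes) and 2 lower (33.5%). *Klf9*, one of the 15, had 88.8 ± 9.40 CPM against 3.23 ± 0.176 (SD, n = 3). *Trim10* was 4.55-fold lower (-2.19, SE 0.56, adjusted p = 0.0114), *Trim58* 2.66-fold (-1.41, SE 0.49, adjusted p = 0.0377) and *E2f4* 2.34-fold (-1.23, SE 0.11, adjusted p = 0.000126). *Trim58* rested on 25 to 113 counts per library at E18.5. Smaller falls were called for *Xpo7* (-0.41, adjusted p = 0.0110), *Fbxo7* (-0.33, adjusted p = 0.0284) and *Ube2o* (-0.23, adjusted p = 0.0450), all 3 lost with the authors' scaling. Without any single library other than E18.5 replicate 1, the call of *Fbxo7* or *Ube2o* or both was lost (adjusted p = 0.0522 to 0.138), and a minimum of 10 counts in every library lost all 3 (0.0508 to 0.413). The call of *Trim58* was lost with the authors' scaling (adjusted p = 0.0592), and without CD324+ replicate 2, CD324+ replicate 3 or E18.5 replicate 3 (0.0893 to 0.121). The count of lower genes was 6 without E18.5 replicate 1, the library with the most lung transcripts, 3 without CD324+ replicate 3 and 2 with the authors' scaling.

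Of the other lists at E18.5, 18 of 34 late erythroid genes were lower and 5 higher, and 13 of 22 early erythroid genes were lower and 2 higher. Nuclear transport genes were lower in 20 of 26 and higher in none, and *Xpo7* fell less than their median of -0.88. E2F and pocket protein genes were lower in 10 of 14 and higher in 3, one of these *Rbl2* (1.55, edgeR adjusted p = 9.13e-05). Autophagy genes were higher in 13 of 32 and lower in 7. Over all genes tested between the ages, 35.9% were higher and 33.5% lower.

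Over the 12 libraries, the genes whose log2(CPM + 1) ran most like that of a member were found among 10777 genes with a mean of at least 5 CPM. For *Trim58* they were *Mtr*, *Slc16a3* and *Ubash3a* (Pearson r = 0.997, 0.993 and 0.992). For *Xpo7* they included *Litaf* and *Zyg11b* (0.985 and 0.976), and for *Bnip3l* *Podxl*, *Gltp* and *Hmha1* (0.990, 0.988 and 0.981). Within the set, *Trim58* ran with *E2f4* (r = 0.966) and *Ube2o* (0.922) and against *Xpo7* (-0.532). The 12 points fall into 4 sorted groups, so these values describe group patterns, and no test was run on them.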

How the data were processed

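RNA from sorted fetal liver cells was sequenced in 12 libraries. The authors depleted ribosomal RNA enzymatically, made stranded total RNA libraries, used STAR to align single reads to GRCm38, and obtained a count for each gene from featureCounts. The submitters' processing notes also name cutadapt 1.11, STAR 2.5.0a, featureCounts 1.4.6-p3 and R 3.5.1. The annotation, the strand setting and the treatment of reads with several alignments are not given in the sources used here. The deposited files hold raw counts per gene as whole numbers, beside a score per gene that the authors made from the count with 1 factor per library. All tests rest on the counts. The score served to recover the factor of each library.

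Genes were matched by name and identifier, with coordinates and exon lengths from GENCODE vM21, which held 37932 of the 38127 identifiers. Tests used edgeR 4.0.16 in R 4.3.3 (TMM, filterByExpr, quasi-likelihood test, Benjamini-Hochberg adjustment over all genes tested, adjusted p below 0.05). A single fit took the 9 libraries of E14.5, and another took the 6 CD54+CD31- libraries. Standard errors (SE) were the log2 fold change divided by the square root of F. Levels are counts per 1000000 (CPM) scaled with TMM over 12 libraries and shown as mean ± SD over 3. Total counts were 40714017 to 64368883 per library, so the number of libraries, 3 per group, limits the precision more than counting error. The tests were checked on simulated counts in which few genes were changed, as many raised as lowered. In the data most genes were called, so the simulation did not check the scaling. Ratios of counts within a library, *Slc4a1* and the percent-of-P2 values were chosen after the data were seen.

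Alternatives were DESeq2's size factors, DESeq2 1.42.0, the authors' factors, other low count filters, removal of genes that held over 1% of any library, other sets of libraries, a replicate block and each library left out. Deviations from the group means correlated between same-numbered CD31+ and CD324+ libraries (0.334, 0.26 and 0.122 for numbers 1, 2 and 3 of the labels). All of these met the criterion of 0.1 for pairing. The main fit had no replicate term even so, and the block, run as an alternative, changed no call among the E14.5 groups. Between P2 and CD31+ libraries the values were 0.0152, 0.0767 and 0.336, above 0.1 for number 3 only. Between P2 and CD324+ libraries none reached 0.1.

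The 10 genes and the gene lists were chosen with earlier results of these data known. All 10 are described in every group. Of each list, the genes named are the list's defining gene and up to 5 called genes with the largest change between P2 and CD324+ cells. Some genes that these rules select are not reported here.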

Additional observations from a re-analysis of the deposited data

How the results depend on the processing

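Of the counts of called genes, those between P2 and the 2 other E14.5 groups stayed within 1.5 times under the alternatives run, except that the authors' factors gave 2 genes lower in P2 than in CD324+ cells. Those factors also gave 1 gene lower in CD31+ than in CD324+ cells and 2 lower at E18.5, and a minimum of 10 counts in every library gave 3 lower at E18.5. The authors' factors moved the share of higher genes among all called from 48.3% to 53.4% between CD31+ and CD324+ cells and from 51.7% to 60.9% between the ages, with the median of all genes at 0.08 and 0.27. With 1 library left out in turn, 7 to 8 genes were higher and 1 lower in P2 than in CD324+ cells, 6 to 7 higher and 2 lower than in CD31+ cells, 2 to 4 higher and 2 to 3 lower in CD31+ than in CD324+ cells, and 4 higher and 3 to 6 lower at E18.5. The direction of differences near 0 turned: *E2f2* between P2 and CD324+ cells (0.029 without P2 replicate 3, from -0.094 to 0.029 over the libraries left out), *Bnip3l* between P2 and CD31+ cells (-0.32 with the authors' factors, -0.094 with the minimum of 10 counts, -0.012 without CD31+ replicate 1, from -0.012 to 0.196), *Ube2o* there (-0.20, authors' factors) and with age (0.0029, authors' factors), and between CD31+ and CD324+ cells *E2f4* (-0.00066 without CD324+ replicate 1, -0.061 without CD31+ replicate 2, from -0.061 to 0.10) and *Xpo7* (-0.07 without CD324+ replicate 2, -0.18 without CD31+ replicate 3, from -0.18 to 0.197). Beyond the shift of the median, the cause was not tested.

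With the replicate block, *Trim58* differed by 2.43 and *Xpo7* by -1.52 between P2 and CD324+ cells (log2), and no call changed among the E14.5 groups. Same-numbered P2 and CD324+ libraries correlated by 0.0672, -0.0199 and 0.0839, and E18.5 and E14.5 CD54+CD31- libraries by 0.0688, 0.0173 and 0.0458. None of these reached the criterion of 0.1. Only same-numbered libraries were correlated, so whether P2 and CD324+ libraries shared litters was not tested. The block lost the age calls of *Ube2o* (adjusted p = 0.0941, edgeR) and *Fbxo7* (0.0536).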
